A study of Mus musculus with 13 samples.

Results

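MYC and its relatives form a small network of basic helix-loop-helix leucine zipper transcription factors, and 9 of its genes (Myc, Max, Mxd1, Mxd3, Mxd4, Mxi1, Mnt, Mga and Mlx) are described here in mouse Th17 cells. The genes were chosen by symbol, and each matched 1 row of the 56941 gene IDs in the RNA-seq count table. All 9 passed the filter on low counts, which left 14681 genes to test. The RNA came from splenic naive CD4 T cells of mice that had been activated and kept for 72 hours in a Th17-polarizing culture. The libraries labelled KO (genotype Chaf1bfl/fl;Il17fCre+, 3 libraries) carried Chaf1b alleles flanked by recombination sites and a Cre recombinase driven by Il17f, so deletion was limited to cells that had switched on Il17f. The libraries labelled WT (genotype Chaf1bWT, 3 libraries) are described only as wild type for Chaf1b, and their label does not say whether they carried the Cre. Strain, age and sex are not in the labels used here. The comparison addresses what loss of Chaf1b, a subunit of the histone chaperone complex that assembles chromatin on newly copied DNA, changes in Th17 cells.

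MAX is the shared partner of the network. MYC binds DNA as a heterodimer with MAX, mostly at the E-box sequence CACGTG, and recruits acetyltransferases that raise transcription, whereas the MXD proteins, MXI1, MNT and MGA pair with MAX at the same sequence and recruit corepressors. MLX is a parallel partner that pairs with MLXIP, MLXIPL, MNT and some MXD proteins and links the network to glucose sensing. In activated T cells MYC is induced by antigen receptor signalling and drives cell growth, ribosome production, glycolysis and glutamine use, and MXD proteins are associated with cells that leave the cycle.

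Total counts were 35708879, 38395131 and 37139371 in the libraries labelled KO and 40402762, 38099488 and 45232055 in those labelled WT. The deletion was not visible in Chaf1b itself, with 16.3, 14.9 and 13.5 CPM (counts scaled to library size) in the libraries labelled KO against 13.2, 11.4 and 11.5 CPM in the libraries labelled WT, and a log2 fold change of 0.31 ± 0.11 (SE; adjusted p = 0.130). These counts sum all exons of a gene, so RNA that lacked only the deleted part would still be counted. The genotype therefore stands as labelled and was not checked by this gene. WT replicate 1 stood apart from the other WT libraries, at root mean square log2 distances of 0.457 and 0.490 from them, against 0.411 between WT replicates 2 and 3 and 0.416 to 0.430 among the libraries labelled KO. The labelled cell type showed its markers: the 9 CD4 T and Th17 genes summed to 604.5 to 630.2 CPM in the libraries labelled KO and 713 to 932 CPM in those labelled WT, with 4 lower (Il17a, Il17f and Rora among them) and 5 not called. Gamma delta T cell genes summed to 95.8 to 101 CPM against 50.7 to 62.6 CPM (4 of 5 higher), NK cell genes to 8.68 to 11.2 CPM against 5.12 to 7.78 CPM (Eomes higher, Ncr1 and Klrb1c with no count in any library), myeloid genes to 10.0 to 11.4 CPM against 4.77 to 5.93 CPM (Fcer1g higher, the 1 of 6 called, with Csf1r, Tyrobp and Itgam at 0.308 CPM or less) and B cell genes to 14.1 to 16.0 CPM against 16.3 to 22.1 CPM (of 6, Cd79b higher, Ebf1 lower, and Ms4a1 and Pax5 at 0.396 CPM or less), each in the libraries labelled KO against those labelled WT. CD8 T cell genes (12.4 to 16.6 CPM against 14.1 to 16.0 CPM) and stromal and endothelial genes (26.4 to 27.7 CPM against 27.7 to 31.6 CPM) had no called member. Of the stromal and endothelial genes only Pecam1 was tested, and it made up most of the sum, at 26.0 to 27.5 CPM against 27.5 to 31.3 CPM. Col1a1, Col1a2 and Cdh5 were at 0.269 CPM or less. The part of these other cell types in the results was not tested, and in bulk RNA fewer cells of a type and less RNA per cell cannot be told apart.

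The changes within the network were small and ran in both directions. Myc and Mnt, an activator and a repressor that share MAX, were lower in the libraries labelled KO: Myc fell by 16.9% and Mnt fell by 15.9%. Mlx, the partner in the parallel arm, was higher by 17.4%. The other 6 members (Max, Mxd1, Mxd3, Mxd4, Mxi1 and Mga) did not pass the threshold of 0.05 on p-values adjusted over all genes (edgeR quasi-likelihood test). Of all genes tested, 6.39% were called, 3.92% higher and 2.47% lower, against 3 of the 9 members. The median log2 fold change was -0.17 over the 9 members and -0.01 over all genes tested. Values of the libraries labelled KO lay wholly below those of the libraries labelled WT for Myc, Max, Mxd4 and Mnt, wholly above for Mlx, and overlapped for the other 4, while 26.8% of all genes had groups that did not overlap (14.4% above and 12.4% below). None of the 3 calls held when any 1 library labelled KO, or WT replicate 2, was left out.

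**Figure D1:**
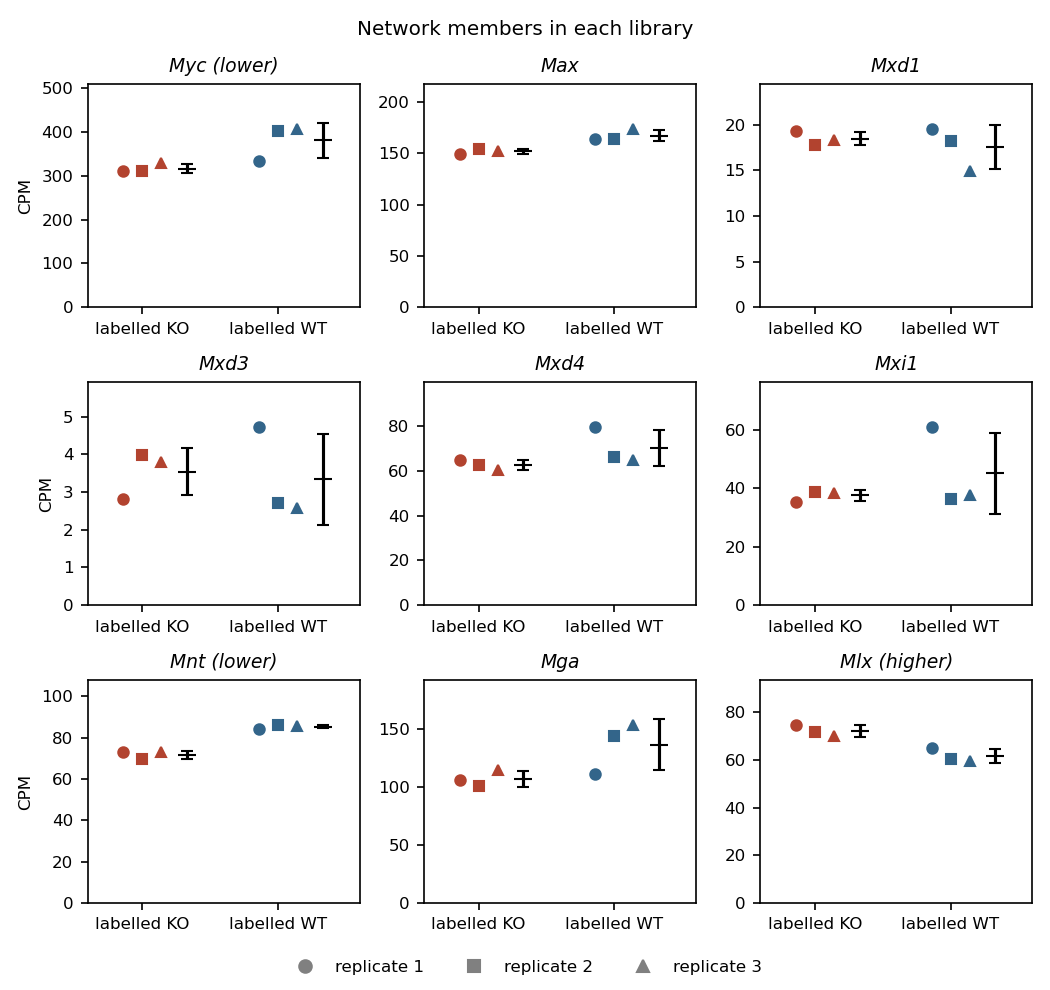
CPM of each network member in each library (vertical axes start at 0), with replicates as separate symbols, the libraries labelled KO left of those labelled WT, and group means with SD over 3 libraries as bars. Mnt and Mlx show groups that are apart with little spread, Myc and Mga have WT replicate 1 below the other WT libraries, and Mxd3 and Mxi1 have WT replicate 1 far above them.

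Myc (ENSMUSG00000022346.18), the activator, had 309.8, 310.2 and 329.6 CPM in the libraries labelled KO, from 10876, 11832 and 12133 counts, against 334.8, 401.4 and 406.6 CPM in the libraries labelled WT, from 13737, 15402 and 18509 counts. The groups did not overlap, but WT replicate 1 lay nearer to the libraries labelled KO than to the other WT libraries. The means were 316.5 ± 11.3 CPM and 381 ± 40.0 CPM (SD, n = 3 each), a log2 fold change of -0.27 ± 0.07 (SE; 95% interval -0.42 to -0.11), which just passed at an adjusted p of 0.0466 (edgeR). On simulated counts the share of false calls was above the nominal level, which bears most on calls this close to the threshold, that of Mlx included. Its size exceeded that of 72.4% of all genes tested. Pvt1, the long noncoding RNA gene beside Myc, had 9.29, 9.12 and 11.3 CPM against 11.9, 11.1 and 13.4 CPM, and its log2 fold change of -0.30 ± 0.12 did not pass (adjusted p = 0.196).

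The paralogs of Myc were present at low counts. Mycl had 2.90, 3.51 and 2.28 CPM in the libraries labelled KO (102, 134 and 84 counts) and 1.66, 1.62 and 1.23 CPM in the libraries labelled WT (68, 62 and 56 counts). Every library labelled KO was above every library labelled WT, the log2 fold change was 0.95 ± 0.24, and the adjusted p was 0.0378 (edgeR), so Mycl moved opposite to Myc. That call was lost when any library other than WT replicate 1 was left out, with adjusted p up to 0.186. Mycn, with 30, 54 and 35 counts against 50, 32 and 20, had a log2 fold change of 0.38 ± 0.40 and overlapping groups (adjusted p = 0.652).

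Max (ENSMUSG00000059436.14), the obligate partner, had 149.0, 154.3 and 152.3 CPM in the libraries labelled KO and 163.9, 164.4 and 173.7 CPM in those labelled WT. The groups were apart and the libraries labelled KO spread little, at a mean of 151.9 ± 2.66 CPM against 167.3 ± 5.54 CPM (SD, n = 3 each). The log2 fold change of -0.14 ± 0.05 (95% interval -0.24 to -0.03) was not called, at an adjusted p of 0.116. Without WT replicate 1 it was -0.15 with an adjusted p of 0.00937, the lowest over the settings tried, which reached 0.356 without KO replicate 1.

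Mxd1, Mxd3, Mxd4 and Mxi1 encode the MXD repressors, which bring the SIN3 corepressor to MAX sites; none was called. Mxd1 (ENSMUSG00000001156.10) had 19.3, 17.8 and 18.3 CPM in the libraries labelled KO and 19.5, 18.2 and 14.9 CPM in those labelled WT, a log2 fold change of 0.08 ± 0.11 with a 95% interval from -0.16 to 0.31. Mxd4 (ENSMUSG00000037235.14) had 64.8, 62.6 and 60.3 CPM against 79.7, 66.0 and 65.0 CPM, a log2 fold change of -0.17 ± 0.08 (-0.34 to 0.01), with the lowest WT library just above the highest library labelled KO. For Mxi1 (ENSMUSG00000025025.15) the values were 35.5, 38.8 and 38.4 CPM in the libraries labelled KO against 61.0, 36.4 and 37.8 CPM in those labelled WT. Its log2 fold change of -0.26 ± 0.19 (-0.69 to 0.16, adjusted p = 0.479) became 0.02 when WT replicate 1 was left out. Mxd3 (ENSMUSG00000021485.15), the MXD gene linked to proliferating cells, had the fewest counts, with 99, 152 and 140 counts in the libraries labelled KO and 194, 104 and 117 counts in those labelled WT. Its log2 fold change of 0.09 ± 0.25 (-0.47 to 0.64) was positive only by a margin smaller than its error, and was 0.42 without WT replicate 1. Intervals of this width leave a fall of the size seen for Myc undecided for Mxd3, Mxd4 and Mxi1. A rise of that size stays undecided for Mxd1 and Mxd3.

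Mnt (ENSMUSG00000000282.13), the broadly expressed MAX-binding repressor that also pairs with MLX, had 72.9, 69.6 and 73.0 CPM in the libraries labelled KO, from 2559, 2655 and 2689 counts, and 84.4, 86.3 and 85.5 CPM in the libraries labelled WT, from 3464, 3312 and 3892 counts. The groups were far apart relative to their spread, with means of 71.8 ± 1.94 CPM and 85.4 ± 0.945 CPM (SD, n = 3 each). The log2 fold change of -0.25 ± 0.05 (95% interval from -0.36 to -0.14) had an adjusted p of 0.0169 (edgeR), the lowest of the 9 members. Mga (ENSMUSG00000033943.16), a large scaffold that joins MAX to the polycomb complex PRC1.6, had 105.5, 100.7 and 114.3 CPM against 111.1, 144.0 and 153.4 CPM. KO replicate 3 was above WT replicate 1, so the groups overlapped. The log2 fold change of Mga, -0.35 ± 0.11 (95% interval from -0.59 to -0.11), was the largest in size among the members but was not called (adjusted p = 0.0875), and it was -0.48 without WT replicate 1 (adjusted p = 1.66e-08, against up to 0.266 under the other settings tried).

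Mlx (ENSMUSG00000017801.16) had 74.9, 71.9 and 70.0 CPM in the libraries labelled KO, from 2629, 2744 and 2579 counts, against 64.9, 60.3 and 59.5 CPM in the libraries labelled WT, from 2662, 2312 and 2710 counts. Every library labelled KO was above every library labelled WT, with means of 72.3 ± 2.44 CPM and 61.6 ± 2.90 CPM (SD, n = 3 each). Its log2 fold change was 0.23 ± 0.06 (95% interval 0.10 to 0.36; adjusted p = 0.0413, edgeR). Mlxip, the glucose-responsive partner of MLX, had 72.2 to 83.2 CPM in the libraries labelled KO and 77.6 to 81.8 CPM in those labelled WT (log2 fold change -0.02 ± 0.06, adjusted p = 0.920). Its relative Mlxipl had 0, 2 and 4 counts against 0, 0 and 4 counts and was not tested. Counting did not use strand, and the RefSeq gene table places Psmc3ip, a meiotic recombination cofactor, over part of Mlx. Psmc3ip was higher as well, with 12.6, 11.0 and 11.6 CPM in the libraries labelled KO and 7.95, 8.78 and 7.80 CPM in those labelled WT (log2 fold change 0.52 ± 0.11, adjusted p = 0.0195, edgeR). How far reads of one gene entered the count of the other was not tested. Prelid1 overlaps Mxd3 in the same way and was not called (log2 fold change 0.19, adjusted p = 0.193, edgeR). It was far more abundant, at 355.1, 335.9 and 323.2 CPM in the libraries labelled KO and 336.6, 286.3 and 266.6 CPM in those labelled WT. Mxd3 had 2.82, 3.985 and 3.803 CPM against 4.729, 2.711 and 2.57 CPM. Among the WT libraries both were highest in replicate 1. Whether reads of Prelid1 entered the count of Mxd3 was not tested. No gene of the RefSeq table overlaps Myc, Max, Mxd4 or Mnt.

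**Figure D2:**
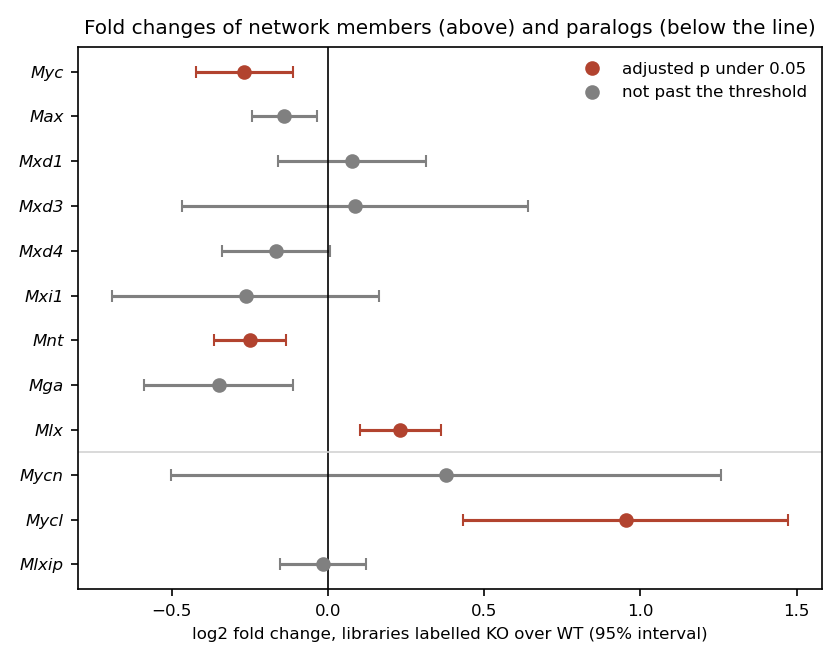
Log2 fold change, libraries labelled KO over libraries labelled WT, of the 9 members and, below the line, of their tested paralogs, with 95% intervals as horizontal bars. Myc and Mnt lie below 0 and Mlx and Mycl above 0 past the threshold, and the intervals of Max and Mga also leave out 0 although their adjusted p is 0.116 and 0.0875.

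How the calls rest on single libraries was read by refitting all genes without each library in turn. Without KO replicate 1, 2 or 3 no member was called, and the adjusted p of Myc was 0.210, 0.197 and 0.125, that of Mnt 0.0838, 0.111 and 0.0753, and that of Mlx 0.215, 0.162 and 0.113. The same refits called 1.94% to 2.15% of all genes. Without WT replicate 2 no member was called either, with 2.42% of genes called, and the adjusted p was 0.195 for Myc, 0.0908 for Mnt and 0.174 for Mlx. Without WT replicate 3 Mnt alone was called (adjusted p = 0.0229) among 6.77% of genes. Without WT replicate 1 there were 5 called members, Myc (-0.35), Max (-0.15), Mnt (-0.26) and Mga (-0.48) lower and Mlx (0.27) higher, while calls over all genes came to 19.7%. The log2 fold change stayed below 0 for Myc, Max, Mxd4, Mnt and Mga and above 0 for Mlx in all 6 refits. For all of these but Mga the groups did not overlap. Leaving out 1 library could then hardly reverse the direction, so its constancy adds no support. WT replicate 1 was the highest or the lowest WT library for all 9 members, lowest for Myc, Max, Mnt and Mga and highest for Mxd1, Mxd3, Mxd4, Mxi1 and Mlx. Over all genes tested it was at an extreme for 78.9%.

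**Figure D3:**
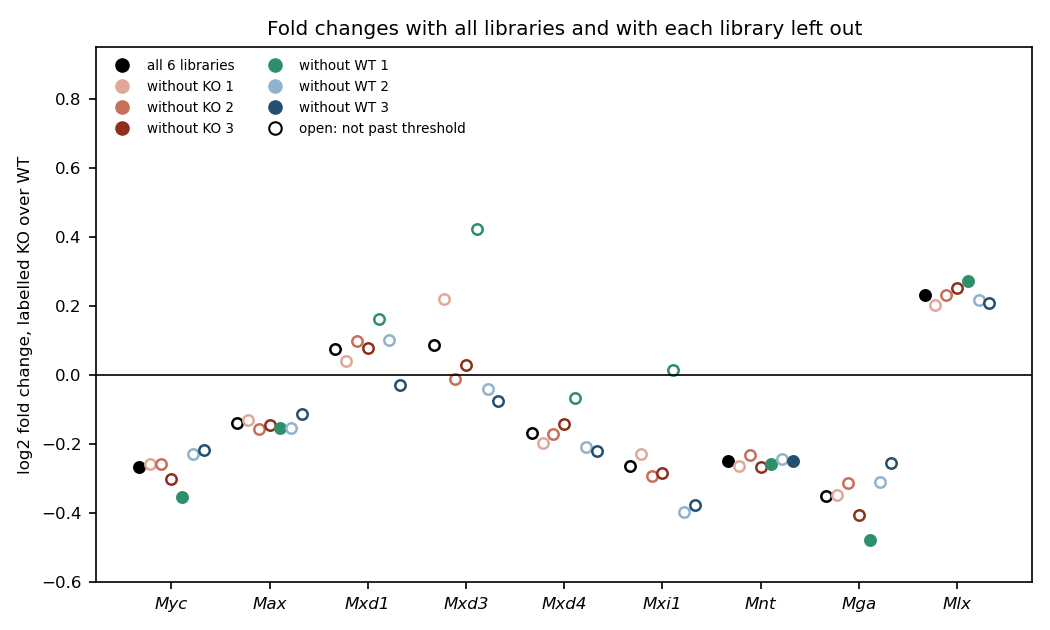
Log2 fold change (libraries labelled KO over those labelled WT) of each member with all 6 libraries and with each library left out in turn; filled points passed the adjusted p threshold and open points did not. Leaving out WT replicate 1 moves Mxd3 to 0.42 and Mxi1 to 0.02 and gives 5 filled points, whereas Mnt stays between -0.26 and -0.23 in all 6 refits.

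Because the proteins compete for MAX, counts were also set against each other within each library, as ratios that depend on transcript length and carry no meaning as molar amounts. Myc over Max was 2.08, 2.01 and 2.16 in the libraries labelled KO and 2.04, 2.44 and 2.34 in those labelled WT, and the groups overlapped. Myc over Mnt also overlapped, at 4.25, 4.46 and 4.51 against 3.97, 4.65 and 4.76. Mnt over Max was lower in every library labelled KO, at 0.489, 0.451 and 0.480 against 0.515, 0.525 and 0.492. Mlx over Max was higher in every library labelled KO, at 0.503, 0.466 and 0.460 against 0.396, 0.367 and 0.343 in the libraries labelled WT, which gave 0.476 ± 0.023 and 0.368 ± 0.027 (SD, n = 3 each). Mlx over Mlxip was likewise apart, at 1.04, 0.893 and 0.842 against 0.821, 0.736 and 0.767. An exact permutation test of 3 against 3 libraries cannot go below p = 0.1, so these ratios are given as values.

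Some members carry in their own promoters the sequence that the network binds. RefSeq promoter windows (build GRCm38.p6, 250 bases before to 50 after each start) were matched by symbol for 8 of the 9 members, with 10 windows, and searched for CACGTG, which reads the same on both strands. The E-box was in 4 of the 10 windows (40%), those of Max, Mlx, Mnt and Mxd4, against 7.15% of 32851 windows of all genes and 9.95% of the windows of tested genes. Windows of Mga, Mxd1, Mxd3 and Mxi1 did not hold these letters. The 4 windows are printed to show where the E-box, in capitals, lies; each runs 5′ to 3′ on the gene's own strand.
Max, chr12:76962199-76962498, minus strand: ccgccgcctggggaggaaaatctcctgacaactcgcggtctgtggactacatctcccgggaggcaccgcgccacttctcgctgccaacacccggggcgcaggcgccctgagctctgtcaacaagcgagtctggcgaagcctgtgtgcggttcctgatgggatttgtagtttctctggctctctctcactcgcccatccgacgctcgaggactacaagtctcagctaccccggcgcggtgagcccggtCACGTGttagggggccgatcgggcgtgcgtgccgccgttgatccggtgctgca
Mlx, chr11:101087040-101087339, plus strand: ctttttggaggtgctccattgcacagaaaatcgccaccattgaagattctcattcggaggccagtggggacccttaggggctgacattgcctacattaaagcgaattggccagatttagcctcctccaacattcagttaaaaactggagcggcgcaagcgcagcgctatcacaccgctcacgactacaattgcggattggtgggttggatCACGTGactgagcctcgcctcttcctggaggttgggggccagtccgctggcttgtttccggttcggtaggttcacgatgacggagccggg
Mnt, chr11:74830674-74830973, plus strand: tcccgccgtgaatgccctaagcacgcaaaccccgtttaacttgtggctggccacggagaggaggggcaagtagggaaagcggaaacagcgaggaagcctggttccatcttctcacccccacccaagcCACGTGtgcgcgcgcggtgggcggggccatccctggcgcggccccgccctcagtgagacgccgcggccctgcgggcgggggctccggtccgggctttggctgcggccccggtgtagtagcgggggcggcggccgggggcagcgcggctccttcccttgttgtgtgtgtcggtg
Mxd4, chr5:34187661-34187960, minus strand: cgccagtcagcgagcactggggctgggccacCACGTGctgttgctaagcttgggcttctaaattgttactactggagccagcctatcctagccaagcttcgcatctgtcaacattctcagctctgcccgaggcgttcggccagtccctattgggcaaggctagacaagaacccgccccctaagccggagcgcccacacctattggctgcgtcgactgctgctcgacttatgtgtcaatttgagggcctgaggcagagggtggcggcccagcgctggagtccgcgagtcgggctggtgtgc
The E-box begins 3 bases before the start site in Max and so spans it, 40 before it in Mlx, 123 in Mnt and 219 in Mxd4. The windows are rich in G and C, at 64.7% for Max, 55% for Mlx, 70.7% for Mnt and 61% for Mxd4. The 4 genes did not share a response: Mnt was lower, Mlx higher, and Max and Mxd4 were not called. Among tested genes with a window, those holding the E-box (1176 genes) were called higher in 3.49% and lower in 3.23%, with a median log2 fold change of -0.01. Those without it (8789 genes) were called higher in 4.36% and lower in 2.72%, with a median of 0.00033. A match of letters says nothing of whether a factor bound there.

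Partners through which MYC and its antagonists act were read against all genes tested, of which 6.39% were called and 21.1% had an unadjusted p under 0.05; lists this short would hold few calls at that rate. Of 12 MYC coactivator genes, none passed, 4 had an unadjusted p under 0.05, and log2 fold changes ran from -0.20 to 0.16 with a median of -0.01. Hcfc1, a MYC-binding host cell factor, had 400.0 to 435.9 CPM in the libraries labelled KO and 397.5 to 419.9 CPM in those labelled WT. Of 14 tested SIN3 corepressor genes none passed (3 at an unadjusted p under 0.05), with a median of 0.04 and a range from -0.09 to 0.16. Its histone-binding subunits had log2 fold changes of 0.16 ± 0.06 for Rbbp7 (adjusted p = 0.131, edgeR) and 0.14 ± 0.05 for Rbbp4 (adjusted p = 0.111, edgeR). For both, every library labelled KO was above every library labelled WT. This held for 4 of the 14 SIN3 genes and for 14.4% of all genes tested. Of 12 PRC1.6 partners of MGA none passed (2 at an unadjusted p under 0.05), with a median of -0.02; Tfdp1, the dimer partner of E2F6 there, had a log2 fold change of 0.08 ± 0.05 and the deacetylase Hdac1, which the SIN3 list also holds, 0.15 ± 0.06. Of 5 tested E-box factors outside the network (Usf1, Usf2, Tfe3, Tfeb and Mitf) none passed, 2 had an unadjusted p under 0.05, and the median was 0.16. Tfe3, a lysosomal gene regulator, had 89.4 to 92.0 CPM against 83.5 to 100.5 CPM, and Usf2 had 45.0 to 47.9 CPM against 49.0 to 51.4 CPM. DESeq2 and limma-voom without quality weights called no gene of these 4 lists either. With quality weights, calls were 3 for coactivators, 4 for SIN3, 3 for PRC1.6 and 1 for E-box factors, beside 19.99% of all genes. Leaving out WT replicate 1 gave 3, 3, 3 and 1, beside 19.7% of all genes, and leaving out WT replicate 3 gave 1 for SIN3.

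Of 14 genes that set how long MYC protein lasts, 1 was called, beside 6.39% of all genes tested. Usp28, a deubiquitinase that shields MYC from degradation, had 8.69, 10.1 and 9.53 CPM in the libraries labelled KO and 14.0, 12.1 and 13.6 CPM in the libraries labelled WT. The groups were apart, and the log2 fold change was -0.49 ± 0.11 with an adjusted p of 0.0253 (edgeR); the call held without WT replicate 1 or 3 and was lost without any other library, with adjusted p up to 0.138. The median of the 14 genes was -0.00 on the log2 scale. RNA levels of these genes give no measure of MYC protein, which was not measured here.

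**Figure D4:**
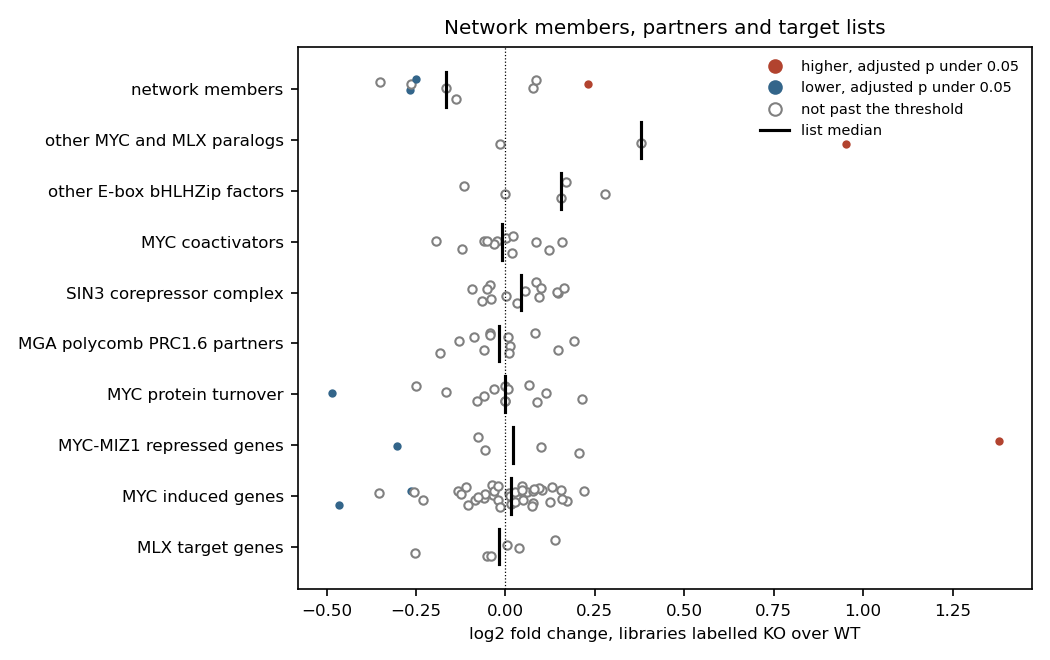
Log2 fold change (libraries labelled KO over those labelled WT) of each tested gene in the network, partner and target lists, with filled points past the adjusted p threshold, open points not past it and a bar at each list's median. The list medians lie near 0 apart from the 9 members (-0.17), the paralogs and the E-box factors (0.16), and Cdkn2b at 1.38 is the largest change shown.

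Genes that MYC induces in many cell types were next read as a group of 42, all of which were tested. Of these 2 were lower, none was higher, and 9 had an unadjusted p under 0.05, close to the 6.39% called and 21.1% at an unadjusted p under 0.05 among all genes. The median log2 fold change was 0.01, within a range from -0.47 to 0.22, and 23 genes were above 0 and 19 below. Groups did not overlap for 11 of the 42 genes, 6 above and 5 below, beside 26.8% of all genes. Ccnd2, the cyclin D2 gene, had 770.9, 757.6 and 771.0 CPM in the libraries labelled KO and 857.1, 927.2 and 975.0 CPM in the libraries labelled WT. Its log2 fold change was -0.26 ± 0.05 (adjusted p = 0.00916, edgeR). Tfap4, which encodes the transcription factor AP4 that prolongs MYC-initiated growth in mouse CD8 T cells, had 21.7, 21.2 and 22.2 CPM against 27.1, 29.8 and 32.9 CPM. Its log2 fold change was -0.47 ± 0.09 (adjusted p = 0.00933, edgeR). For both genes the libraries labelled KO lay close together and wholly below those labelled WT, and WT replicate 1 was the nearest to them. Both calls held without WT replicate 1 or 3 and were lost without any other library, with adjusted p up to 0.0678 for Tfap4 and 0.0763 for Ccnd2.

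The targets were also grouped by role, with their values in view, so differences between roles are descriptive only. By role, the targets did not move as a block. The 13 nucleolar and ribosome assembly genes had a median log2 fold change of -0.03 (5 above 0, 8 below, none called, 2 at an unadjusted p under 0.05). Among them, the abundant nucleolar chaperone gene Npm1 had 1963, 1932 and 1918 CPM in the libraries labelled KO against 1418, 1721 and 1854 CPM in those labelled WT (log2 fold change 0.22 ± 0.08, adjusted p = 0.154). Ncl, the nucleolin gene, had 1836, 1764 and 1772 CPM against 1393, 1730 and 1968 CPM (0.08 ± 0.11, adjusted p = 0.748). The 7 glycolysis and uptake genes were all above 0, between 0.03 and 0.17 with a median of 0.09; none was called, and 1 had an unadjusted p under 0.05. That gene was Ldha, lactate dehydrogenase A, with 939.0, 939.6 and 898.4 CPM against 905.9, 804.9 and 753.0 CPM and overlapping groups. These 7 genes do not stand for glycolysis as a whole, as only Ldha, Pkm and Hk2 among them encode its enzymes. Glycolysis genes outside the list, such as Gapdh, Pgk1 and Aldoa, were called higher, and those not called were not counted here. Genes of nucleotide, polyamine and folate-linked supply (10) had a median of 0.04, mitochondrial chaperones and prohibitins (4) 0.00, and translation factors (3) 0.07, with none called. The 5 genes of cell cycle, regulators and DNA repair had a median of -0.26 and held both calls, Ccnd2 and Tfap4.

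The spread of these targets lay mostly within the WT libraries. Taken per library as the median deviation of the 42 genes from their own mean over libraries, on the log2 scale, the libraries labelled KO stood at 0.006, -0.001 and 0.009 and those labelled WT at -0.066, 0.019 and 0.049. The nucleolar genes showed the same order of the WT libraries more widely, at -0.013, 0.011 and -0.003 against -0.124, 0.074 and 0.143. WT replicate 1 was low by the median of these targets, although some of them, such as Odc1, stood above their own mean in it. As given above, it was the lowest WT library for Myc and at an extreme for 78.9% of all genes. Whether the targets followed Myc was not tested. Without WT replicate 1, 13 of the 42 genes were called, 4 higher and 9 lower, while 19.7% of all genes were called. Without WT replicate 3 there were 5, of which 3 were higher and 2 lower, beside 6.77% of all genes. Leaving out any library labelled KO, or WT replicate 2, gave none, beside 1.94% to 2.42% of all genes.

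**Figure D5:**
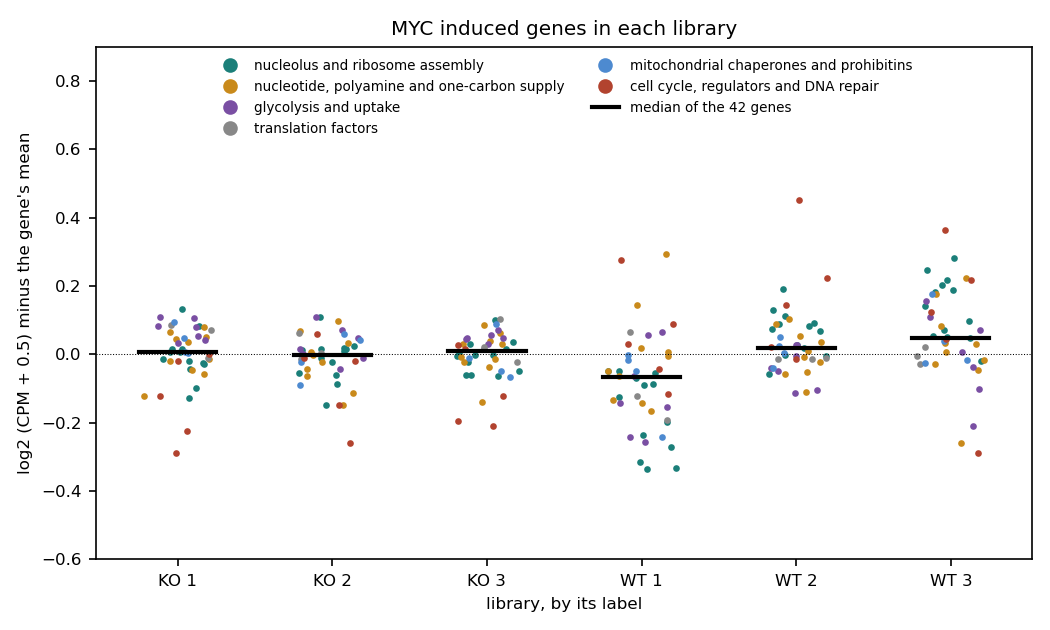
Each of 42 MYC induced genes in each library as log2(CPM + 0.5) minus the gene's mean over the 6 libraries, coloured by role, with the horizontal spread within a library for legibility only and a bar at each library's median. The libraries labelled KO cluster around 0, and the WT libraries spread from a median of -0.066 in replicate 1 to 0.049 in replicate 3.

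MYC also lowers genes, in part through the zinc finger protein MIZ1, and of 6 such genes (Zbtb17, which encodes MIZ1, included) 1 was higher and 1 lower. Among all genes tested 3.92% were higher and 2.47% lower. Cdkn2b, a cyclin-dependent kinase inhibitor gene that MYC and MIZ1 repress, had 8.35, 7.92 and 8.15 CPM in the libraries labelled KO and 2.00, 3.54 and 3.82 CPM in the libraries labelled WT. The groups were far apart, at means of 8.14 ± 0.215 CPM and 3.12 ± 0.983 CPM (SD, n = 3 each), and the log2 fold change was 1.38 ± 0.21 with an adjusted p of 0.00289 (edgeR). Among the called genes of the network, its paralogs and the partner and target lists, it alone was called in all 6 refits with a library left out. Cdkn1b, another inhibitor gene of the list, went the other way, with 59.4, 61.0 and 66.1 CPM against 85.9, 70.8 and 73.8 CPM (log2 fold change -0.30 ± 0.08, adjusted p = 0.0409, edgeR), and its adjusted p reached 0.197 with a library left out. The remaining 4 genes were not called, and the median of the 6 was 0.02.

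Of 7 genes that MLX and its partners regulate in response to glucose, Pklr had no count and none of the 6 tested passed, also none at an unadjusted p under 0.05, with a median of -0.02. DESeq2 and limma-voom called none either, while without WT replicate 1 there was 1 call, higher, beside 19.7% of all genes called. Fasn, fatty acid synthase, had 660.3, 634.9 and 680.9 CPM in the libraries labelled KO and 620.6, 689.4 and 661.4 CPM in those labelled WT. Acaca, acetyl-CoA carboxylase, had 150.1, 152.8 and 155.0 CPM against 150.9, 163.1 and 156.9 CPM. Txnip, an inhibitor of glucose uptake and a frequent readout of MLX with MLXIP, had 56.8, 57.0 and 52.9 CPM against 74.0, 50.7 and 48.3 CPM, again with WT replicate 1 away from the rest.

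The genes whose profile over the 6 libraries lay closest to that of Myc were sought among 9139 tested genes with a mean of at least 5 CPM, by the Euclidean distance of log2(CPM + 0.5) centred on each gene's mean. They were Asxl2, Dido1, Polr1b, Plekha1 and Morc2a, at distances from 0.0406 to 0.0636 against a median of 0.455 over all genes compared. Polr1b, a core subunit of RNA polymerase I and a member of the MYC induced list, had 96.2, 94.8 and 100.6 CPM in the libraries labelled KO and 101.0, 119.9 and 120.9 CPM in those labelled WT. Asxl2, a partner of the polycomb deubiquitinase BAP1, had 51.4, 52.9 and 54.4 CPM against 55.4, 66.3 and 67.6 CPM. Both show the profile for which they were picked, with WT replicate 1 between the libraries labelled KO and the other WT libraries. Because the 5 genes were chosen by this likeness, their small distances and their fold changes near that of Myc follow from the choice. Of the 5 genes Plekha1 was called (log2 fold change -0.29 ± 0.07, adjusted p = 0.0442, edgeR), and the others had adjusted p from 0.0720 to 0.0909.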

How the data were processed

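RNA-seq of 6 libraries was used, 3 labelled KO and 3 labelled WT, which the labels call biological replicates without saying whether each came from its own mouse, so a p-value here reflects only how these libraries vary. Chromatin assays that belong to the same series are not analysed here. The authors deposited raw gene counts from featureCounts 2.0.1 (named in the commands of 5 libraries), taken over GENCODE vM33 exons without strand, per the file headers. Aligner version: not given in the sources used here, and likewise the genome build. Counts of WT replicate 2, entered as other in the record of units because of how that deposited column's header reads, were checked to be whole numbers like the rest. Even values made up 65.6% to 67.7% of counts from 1 to 20, so counts may hold both mates of a pair and rest on fewer fragments.

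IDs were matched to symbols for 51948 of 56941 (91.2%). Total counts ran from 35708879 to 45232055, and TMM factors from 0.984 to 1.016. A floor of 3 counts corresponds to 0.0663 to 0.0840 CPM and covers counting error only. A typical log2 fold change carried a 95% interval of ± 0.12 above 100 CPM, ± 0.16 between 20 and 100 CPM, ± 0.27 between 5 and 20 CPM and ± 0.53 between 1 and 5 CPM (median half-widths). No 2 libraries agreed within sampling noise (lowest chi-square over its degrees of freedom 4.19).

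The libraries labelled KO were compared with those labelled WT in edgeR 4.0.16 (R 4.3.3): default filter on low counts, TMM factors, robust quasi-likelihood fit and test, Benjamini-Hochberg adjustment over 14681 genes. Fold changes are KO over WT, and CPM uses TMM library sizes. The test was checked on simulated data, where false calls at the threshold of 0.05 made up more than the nominal share, so calls with an adjusted p near it (Myc, Mlx) are less secure than the value reads. Alternatives were other scalings, other filters, DESeq2 1.42.0, limma-voom (limma 3.58.1) with and without quality weights, a replicate block and each library left out.

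The members and gene lists were chosen with earlier results of these data known, so no count over them is independent support. Genes named are the 9 members, Chaf1b, called members of each list or, with none called, the 2 of highest mean CPM, and the 5 nearest profiles to Myc. Some genes picked this way are not reported here. Pvt1 was a list of its own. Other genes named (Mycn, Mlxip, Mlxipl, Psmc3ip, Prelid1, Txnip, Npm1, Ncl, Ldha, Pkm, Hk2, Gapdh, Pgk1, Aldoa, the remaining E-box factors, Zbtb17, Pklr, the marker genes and any gene named only under an alternative setting) and the grouping of MYC induced genes by role were picked with their values in view. The RefSeq tables supplied promoter sequences and which genes overlap.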

Additional observations from a re-analysis of the deposited data

How the results depend on the processing

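Of 135 member fold changes recomputed under other settings, 106 kept their direction and side of the threshold, 18 lost the threshold, 6 gained it and 5 reversed. Of 165 recomputed counts of called genes, 112 were within 1.5 times the main count and 53 were not. With each library left out in turn, calls over all genes ran from 295 to 2961 (main 938) and member calls from 0 to 5 (main 3). Log2 fold changes then ran from -0.35 to -0.22 for Myc, -0.15 to -0.11 for Max, -0.03 to 0.16 for Mxd1, -0.07 to 0.42 for Mxd3, -0.22 to -0.07 for Mxd4, -0.40 to 0.02 for Mxi1, -0.26 to -0.23 for Mnt, -0.48 to -0.26 for Mga and 0.20 to 0.27 for Mlx. The reversals, all small, were Mxd1 without WT replicate 3 (-0.0297), Mxd3 without KO replicate 2 (-0.01), WT replicate 2 (-0.04) or WT replicate 3 (-0.074), and Mxi1 without WT replicate 1 (0.0163). List calls ran from 0 to 1 for paralogs, E-box factors and MLX targets, 0 to 3 for coactivators, SIN3, PRC1.6 and turnover, 1 to 3 for MIZ1 and 0 to 13 for MYC induced genes.

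Without the filter 1568 genes were called and with quality weights 2934. Myc missed the threshold under DESeq2 size factors (-0.27, adjusted p = 0.0510) and limma-voom (-0.26, 0.0604). Mlx missed it under library totals (0.20, 0.0687) and the replicate block (0.23, 0.0599). Max passed with quality weights (-0.13). Mga passed without the filter (-0.35), with DESeq2's test (-0.35) and with quality weights (-0.42). Member calls were 5 with quality weights, 4 without the filter or with DESeq2, and 2 under DESeq2 size factors, library totals, limma-voom and the block. Scaling by library totals split the calls as 464 higher and 502 lower, against 576 and 362. List calls with quality weights were 1 for E-box factors, 3 for coactivators, 4 for SIN3, 3 for PRC1.6, 2 for turnover and 10 for MYC induced genes. Without the filter they were 3 for turnover and 6 for MYC induced genes, under library totals 2 and 4, with limma-voom 1 for MIZ1, and with the block 0 for turnover and 1 for MIZ1. The cause of these shifts was not tested. Same-numbered libraries did not deviate together (correlations -0.040, -0.028 and 0.00087). With 3 libraries per genotype this cannot show whether the numbers mark a shared animal or batch, which the labels do not say. The replicate block called 671 genes, of which 633 were called without it. Low counts limit what can be said of Mxd3, Mycl and Mycn.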
